A study of Mus musculus with 2 samples.

Results

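Genes named for the RING finger were measured on arrays in mouse embryonic stem (ES) cells of the E14 line, in 2 clones that both overexpress the zinc finger transcription factor Klf5. All genes whose symbol is Rnf followed by a digit were taken, other than Rnf2 and Rnf43, and only from probe sets that the array annotation gives 1 gene symbol. This gave 76 genes, read by 161 probe sets, of 18193 genes and 34945 such probe sets in all. Both clones carry the same label apart from the clone number, and their cells were kept undifferentiated in ES medium with serum and LIF (leukaemia inhibitory factor, which sustains self-renewal). Each clone had 1 Affymetrix array, so the clones form 1 group with n = 2, and the labels do not say whether they were cultured or hybridised together. Wild-type ES cells, with which the study compares these clones, were not analysed here, so that no difference below can be read as a change caused by Klf5.

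Ubiquitin is passed from an activating enzyme (E1) to a conjugating enzyme (E2) and from there to a target protein chosen by a ligase (E3). A RING finger is a small zinc-binding fold that holds the loaded E2 close to the target, and most Rnf proteins are E3 ligases of this kind. They mark proteins for the proteasome or change their activity, and they act on chromatin, in the membranes of the endoplasmic reticulum, on ribosomes and in signalling pathways. In ES cells such ligases act in the repair of DNA breaks and in Nodal and WNT signalling, among other processes.

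Signals are given as deposited, on a log2 scale, and differences are clone 2 minus clone 1. A gene was represented by its probe set with the highest mean signal. The background of each array was set at the level below which 95% of 91 probe sets lay whose 53 genes belong to adult tissues, such as caseins and crystallins, 6.33 in clone 2 and 6.70 in clone 1. Probe sets differ in affinity, so no gene's signal is read as more or less RNA than another's. Genes above background in at least 1 clone are called expressed. With 1 array per clone no test between the clones is possible, and a difference of at least 1.5-fold (0.58 on the log2 scale) with the higher clone above background is used as a rule of size. The 3 probe sets of Klf5 read 12.25, 7.26 and 4.77 in clone 2, against 11.61, 6.97 and 4.81 in clone 1. The 10 ES cell markers measured, Pou5f1, Sox2 and Nanog among them, were above background in both clones, with signals of 9.29 to 14.15. Of 8 fibroblast feeder, 6 neural, 5 trophoblast and 6 primitive endoderm markers 0 were above background in both clones, and Tubb3 and Sox17 were so in clone 2 alone. On the linear scale the fibroblast markers summed to 172.4 in clone 2 and 191.2 in clone 1, and the neural ones to 285.7 and 241.6. The trophoblast markers summed to 167.5 in clone 2 and 184.1 in clone 1, and those of primitive endoderm to 348.4 and 335.7.

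Promoter sequence is shown for the 3 Rnf genes that were at least 1.5-fold higher in clone 2 and for a pair below background in both clones, because the windows of members above and below background differed in base composition. Each is the 250 bases before the annotated start, 5′ to 3′, from RefSeq on GRCm38.p6. Capitals mark the GC box GGGCGG and the related GGGTGG, on either strand; both are of the GC-rich kind that Klf and Sp factors are known to bind, and they overlap in Rnf128. Rnf216 lies on the minus strand at chr5:143113021-143113270 and Rnf128 on the plus strand at chrX:139610370-139610619. Rnf6 lies on the minus strand at chr5:146220902-146221151, which is 1 of 3 windows listed for that gene. Of the Rnf6 windows not shown, 1 held GGGCGG at 2 places and the other held GGGTGG but no GGGCGG. Rnf133 (chr6:23650306-23650555) and Rnf148 (chr6:23655137-23655386) lie close together on the minus strand.
Rnf216: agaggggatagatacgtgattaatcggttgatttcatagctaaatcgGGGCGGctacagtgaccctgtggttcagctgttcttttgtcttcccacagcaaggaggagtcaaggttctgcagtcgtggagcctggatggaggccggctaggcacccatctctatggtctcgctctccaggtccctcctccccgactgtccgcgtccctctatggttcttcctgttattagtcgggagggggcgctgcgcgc
Rnf128: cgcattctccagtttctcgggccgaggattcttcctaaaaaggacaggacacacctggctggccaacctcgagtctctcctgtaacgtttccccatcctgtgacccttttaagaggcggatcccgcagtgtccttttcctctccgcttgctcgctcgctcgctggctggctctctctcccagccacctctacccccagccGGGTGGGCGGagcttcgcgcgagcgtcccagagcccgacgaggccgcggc
Rnf6: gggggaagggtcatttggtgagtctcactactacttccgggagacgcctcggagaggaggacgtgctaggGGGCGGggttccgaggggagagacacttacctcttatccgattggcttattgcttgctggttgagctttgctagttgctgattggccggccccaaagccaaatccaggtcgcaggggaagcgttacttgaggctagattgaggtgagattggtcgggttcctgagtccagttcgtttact
Rnf133: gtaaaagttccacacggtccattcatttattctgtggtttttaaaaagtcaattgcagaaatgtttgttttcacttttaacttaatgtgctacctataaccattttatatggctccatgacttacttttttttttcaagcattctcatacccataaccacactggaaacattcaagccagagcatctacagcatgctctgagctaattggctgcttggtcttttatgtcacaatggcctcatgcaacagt
Rnf148: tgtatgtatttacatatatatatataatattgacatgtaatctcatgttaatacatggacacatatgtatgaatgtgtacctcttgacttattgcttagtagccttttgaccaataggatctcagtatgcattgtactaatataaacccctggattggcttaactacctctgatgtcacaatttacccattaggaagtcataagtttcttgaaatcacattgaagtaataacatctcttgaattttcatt

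The windows shown held 14 CpG dinucleotides in Rnf216, 21 in Rnf128 and 12 in Rnf6, against 1 in Rnf133 and 0 in Rnf148. The pair is not typical of members below background, since its GC contents (36.8% in Rnf133 and 30.8% in Rnf148) were the lowest of all Rnf windows. Other windows of members below background held up to 40 CpG (Rnf157). Promoter windows were found for 60 of the 76 genes, 77 windows in all. GGGCGG stood in 39 of 56 windows (69.6%) of members above background and in 5 of 21 (23.8%) of members in neither clone. The same letters stood in 60.3% of the windows of all measured genes above background, in 33.5% of those of genes in neither clone and in 32.7% of all 32851 windows of the table. GGGTGG did not divide the members in this way, with 26.8% of the windows of expressed and 38.1% of those of members below background. It stood in 33.0% of the windows of all measured genes above background, in 32.7% of those of genes in neither clone and in 28.1% of all windows. The median CpG count was 18 in windows of expressed members and 9 in those below background, against 16 and 6 for all measured genes. Among members the division by GC box and CpG count thus ran the same way as over the whole array. A match describes letters and not a bound site, and several windows of a gene can overlap.

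**Figure D1:**
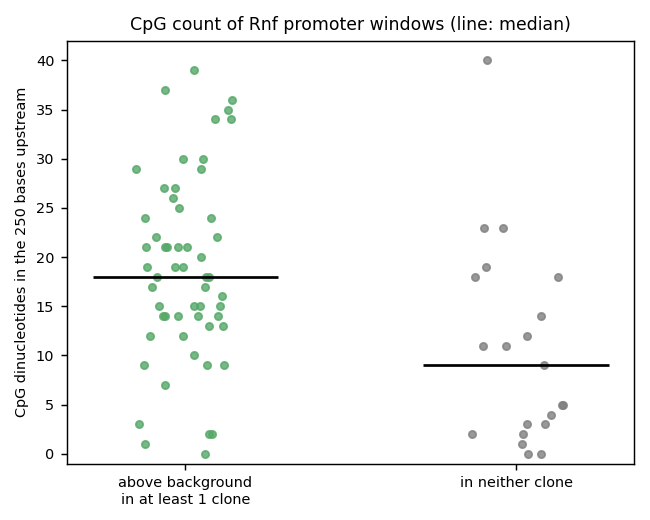
CpG dinucleotides in the 250 bases before the start (y axis), for 56 windows of Rnf genes above background in at least 1 clone (left) and 21 windows of Rnf genes in neither clone (right). Each point is 1 window and the line is the median, 18 on the left and 9 on the right; both groups hold windows without a CpG, and their ranges overlap.

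Of the 76 Rnf genes, 51 (67.1%) were above background in both clones, 2 in clone 2 alone and 23 in neither. For comparison, 47.7% of all measured genes passed background in both clones, and 52.5% did so in at least 1. Members listed for chromatin, the endoplasmic reticulum, translation and signalling were above background almost throughout, whereas 0 of 8 members listed for brain, muscle and other adult tissues were. These role lists were drawn up from general knowledge but with earlier results of these data known, so the contrast between lists is descriptive. The 16 members with no listed role are given at the end.

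**Figure D2:**
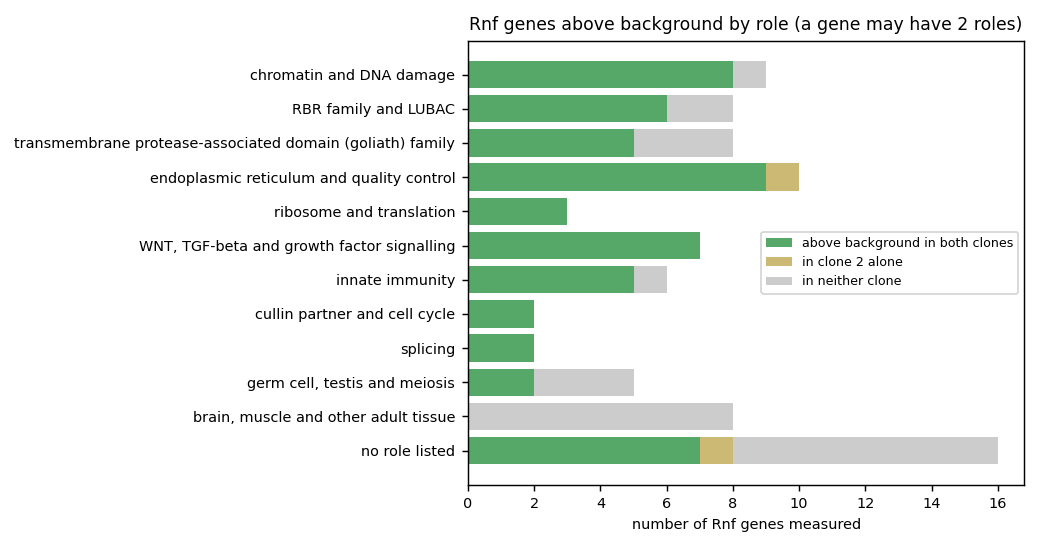
Number of Rnf genes (x axis) above background in both clones, in clone 2 alone or in neither, for each role list (y axis). All 7 signalling and all 3 translation members were above background in both clones, and 0 of 8 members of the adult tissue list were above it in either; a gene may stand in 2 lists.

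Among the ligases of chromatin and DNA damage, 8 of 9 members were above background in both clones. Rnf20 and Rnf40 form the ligase that places a single ubiquitin on histone H2B in transcribed genes. Rnf20 read 9.03 in clone 2 and 8.87 in clone 1, and Rnf40 7.99 and 7.94. Rnf8 and Rnf168 act in turn at DNA double-strand breaks, where they ubiquitylate chromatin and so recruit repair proteins. Rnf8 had a signal of 8.61 in clone 2 and 8.49 in clone 1. Rnf168 had 8.27 in clone 2 and 8.33 in clone 1. Rnf169, which binds the marks laid by Rnf168, read 8.08 and 7.94. The signals of these break-response genes thus lay within 0.14 of each other between the clones.

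Rnf138, which promotes the resection of broken DNA ends, was 11.06 in clone 2 and 10.71 in clone 1, and its other probe sets above background also read higher in clone 2, by 0.34 and 0.11. Rnf4, a ligase directed to proteins that carry SUMO, was 10.58 in clone 2 and 10.66 in clone 1. Rnf111 (Arkadia), which also binds SUMO and removes inhibitors of Nodal and TGF-beta signalling, was 9.57 and 9.44. Rnf144a, a ligase of the DNA-dependent protein kinase, was not above background, at 5.82 and 6.19. The 8 expressed members of this list had a median difference of 0.125, which was -0.005 after quantile normalization and 0.02 after loess.

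The RBR ligases, in which a second RING-like domain takes over the ubiquitin before it reaches the target, included the member with the largest difference. Rnf216 (Triad3), known for the degradation of Toll-like receptors and for mutations in a human syndrome of ataxia and hypogonadism, was 8.43 in clone 2 and 7.13 in clone 1. Its mean was 7.78 ± 0.92 (SD, n = 2). It was 2.46-fold higher in clone 2 and the only Rnf gene to differ 2-fold, as 0.45% of all 9551 genes above background did. When all expressed genes were split by signal into 4 equal bands, the band of Rnf216 held 2388 genes, of which 4 (0.168%) differed at least as much, Rnf216 included, and 3 of these were higher in clone 2. Rnf216 is read by 1 probe set alone, so no other probe set checks this difference.

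The remaining RBR ligases differed less. Rnf31 (HOIP), the catalytic subunit of the linear ubiquitin assembly complex, was 8.09 in clone 2 and 7.76 in clone 1. Rnf14, an androgen receptor co-activator that also acts on stalled ribosomes, was 9.62 and 9.61. Rnf19a (dorfin) gave the same signal of 9.33 in both clones. Its close relative Rnf19b was 7.67 in clone 2 and 7.49 in clone 1, and its other probe set gave 7.70 and 7.46. Rnf217, a regulator of the iron exporter ferroportin, was 6.91 in clone 2 and 7.19 in clone 1, the lowest difference among the expressed members (-0.28). This came from a probe set that may bind other transcripts. The other Rnf217 probe sets were below background and read higher in clone 2, by 0.06 to 0.27. Both the direction and the place of Rnf217 among the expressed members thus rest on that probe set. Rnf144b was not above background.

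The goliath ligases sit in membranes of the endosomal and secretory system through a protease-associated domain and a transmembrane segment. Rnf128 (GRAIL), known from T cells in which it maintains anergy, was 9.11 in clone 2 and 8.33 in clone 1, which is 1.72-fold higher in clone 2, and averaged 8.72 ± 0.55 (SD, n = 2). Its other probe set gave 8.83 and 8.14, so that the pair differed by 0.78 and 0.69. Among the 2386 genes of its signal band 20 (0.838%), Rnf128 included, differed at least as much. Rnf128 is X-linked. The 303 X-linked genes above background had a median difference of 0.09, the same as over all genes, and the X-linked Rnf113a1 differed by 0.01. Whether the chromosome bears on the Rnf128 difference was not tested.

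Of the other goliath members, Rnf149 was 9.43 in clone 2 and 8.99 in clone 1. Rnf167, which acts at endosomes and lysosomes, was 9.79 and 9.55. Rnf13, a partner of the stress sensor IRE1, was 9.35 in clone 2 and 9.34 in clone 1. Rnf130, the mouse homologue of fly goliath, was 8.65 in clone 2 and 8.83 in clone 1. Thus 4 of the 5 expressed members were higher in clone 2 and their median difference was 0.24, or 3 of 5 and 0.15 after quantile normalization; 4 of 5 is close to the 63.9% of all genes above background that were higher in clone 2. Rnf133, Rnf148 and Rnf150 were not above background.

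All 10 members listed for the endoplasmic reticulum and protein quality control were above background in at least 1 clone. Rnf5 and its close relative Rnf185 degrade misfolded membrane proteins. Rnf5 was 9.77 in clone 2 and 9.95 in clone 1, and Rnf185 8.70 and 8.83. The Rnf185 value comes from a probe set that may bind other transcripts, and its other probe set read 8.16 in both clones. Rnf139 (TRC8) and Rnf145 act in sterol-regulated degradation. Rnf139 read 8.82 in clone 2 and 8.78 in clone 1. Rnf145 read 11.14 in clone 2 and 10.97 in clone 1. Rnf26, which tethers endosomes to the endoplasmic reticulum, read 11.08 and 10.98 by the brighter of its probe sets and 9.01 and 8.66 by the other. The brighter may bind other transcripts, and the other gave a difference of 0.35.

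Rnf126, which clears mislocalised proteins with Bag6, was 8.95 in clone 2 and 8.77 in clone 1. Rnf115, its paralogue, was 10.01 in clone 2 and 9.70 in clone 1, and its probe sets differed by 0.31 and 0.39. The signals of both paralogues were thus higher in clone 2, without reaching 1.5-fold. Rnf103 was 7.19 and 6.90, and Rnf121 7.56 and 7.57. Rnf170, which targets inositol trisphosphate receptors, was above background in clone 2 alone (6.68 in clone 2 and 6.28 in clone 1); its clone 2 signal was below the background level of clone 1, so no fold is given.

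Members that act on translation were all above background. Rnf10, which ubiquitylates proteins of the small ribosomal subunit, was 10.44 in clone 2 and 9.94 in clone 1, a 1.41-fold difference. Rnf25, which with Rnf14 clears translation factors trapped on stalled ribosomes, was 7.91 in clone 2 and 7.84 in clone 1. The 3 members had a median difference of 0.07, which quantile normalization turned to -0.075.

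The members listed for WNT, TGF-beta and growth factor signalling were above background in both clones, 7 of 7. Rnf6, known to target LIM kinase and the androgen receptor, was 8.12 in clone 2 and 7.46 in clone 1, which is 1.58-fold higher in clone 2, and averaged 7.79 ± 0.47 (SD, n = 2). Its other probe set gave 7.28 and 6.64, of which the clone 1 value is just under background. In its signal band 73 genes (3.06%) differed at least as much. Rnf6 is at the edge of the rule of size: quantile normalization gave 0.52 and loess 0.55, both under 1.5-fold.

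Rnf146, which degrades axin after tankyrase has tagged it and so promotes WNT signalling, was 9.15 in clone 2 and 9.07 in clone 1. Rnf220, which stabilises beta-catenin, was 9.44 and 9.23. Rnf41 (Nrdp1), a ligase of the receptor ErbB3, was 7.30 in clone 2 and 7.04 in clone 1 by its brightest probe set, whereas another read 6.82 and 6.96, so its direction is unsettled. Rnf11, an adaptor of the A20 complex that restrains NF-kappaB, was 8.73 in clone 2 and 8.54 in clone 1. With Rnf111 and Rnf138, described above, all 7 members were higher in clone 2 and the median difference was 0.21, beside 63.9% of genes higher and a median of 0.09 over all genes above background. After quantile normalization 6 of 7 were higher, with a median of 0.105. When all probe sets of a gene were averaged, those below background included, Rnf146 (-0.05), Rnf41 (-0.20) and Rnf220 (-0.02) were lower in clone 2.

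Of 6 members listed for innate immunity 5 were above background. Rnf125, which turns off the RNA sensor RIG-I, was 8.81 in clone 2 and 8.71 in clone 1, whereas Rnf135 (Riplet), which switches the same sensor on, was not above background (5.68 and 5.51). Rnf114 was 9.75 in clone 2 and 9.80 in clone 1, and its probe sets above background differed by -0.05 to 0.10. The brightest may bind other transcripts, and with probe sets ending in _x_at or _s_at left out the difference was 0.10. Rnf213, a giant ATPase whose human gene carries risk variants for moyamoya disease, was 7.91 in clone 2 and 7.94 in clone 1. None of the 5 expressed members, which include Rnf31 and Rnf26, differed 1.5-fold.

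Rnf7 (Rbx2), the RING subunit of ligases built on the scaffold Cul5, was 11.27 in clone 2 and 11.45 in clone 1, but its other probe set read 11.20 and 11.08. Rnf123, a ligase of the cell cycle inhibitor p27, was 7.04 in clone 2 and 7.17 in clone 1. Rnf113a1 and its close copy Rnf113a2 belong to the spliceosome. Rnf113a1 was 7.81 in clone 2 and 7.80 in clone 1, and Rnf113a2 8.13 in both. Whether the probes of this pair also bind the other's transcript was not tested.

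Germ cell ligases were expressed in part. Rnf17, a tudor domain protein known from male germ cells, where it is needed for spermiogenesis, was 9.95 in clone 2 and 9.90 in clone 1. All 4 of its probe sets were above background in both clones, and the other ones read 8.06, 8.03 and 7.11 in clone 2, against 8.11, 8.13 and 7.34 in clone 1. Rnf141, first described in testis, was 9.30 in clone 2 and 9.26 in clone 1. The testis genes Rnf133, Rnf148 and Rnf151 were at 2.56, 3.86 and 5.44 in clone 2, and at 2.90, 3.43 and 5.81 in clone 1, below background throughout.

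Among the 16 members without a listed role 7 were above background in both clones. Rnf187, a co-activator of AP-1, was 11.74 in clone 2 and 11.52 in clone 1. Rnf181 was 10.84 and 10.86. Rnf44 was 10.81 in clone 2 and 10.26 in clone 1, which at 1.46-fold lies just outside the rule of size. Rnf34, an inhibitor of death receptor signalling, was 9.24 in clone 2 and 9.31 in clone 1. Rnf166 read 7.49 and 7.33, and Rnf214 7.38 and 7.36. Among these genes the clones were thus farthest apart in Rnf44. Rnf32 was 6.68 in clone 2 and 6.92 in clone 1. Rnf215 was above background in clone 2 alone, at 6.37 against 6.18 in clone 1. Its clone 2 signal was just over the level of that array (6.33) and below that of clone 1 (6.70), so no fold is given.

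**Figure D3:**
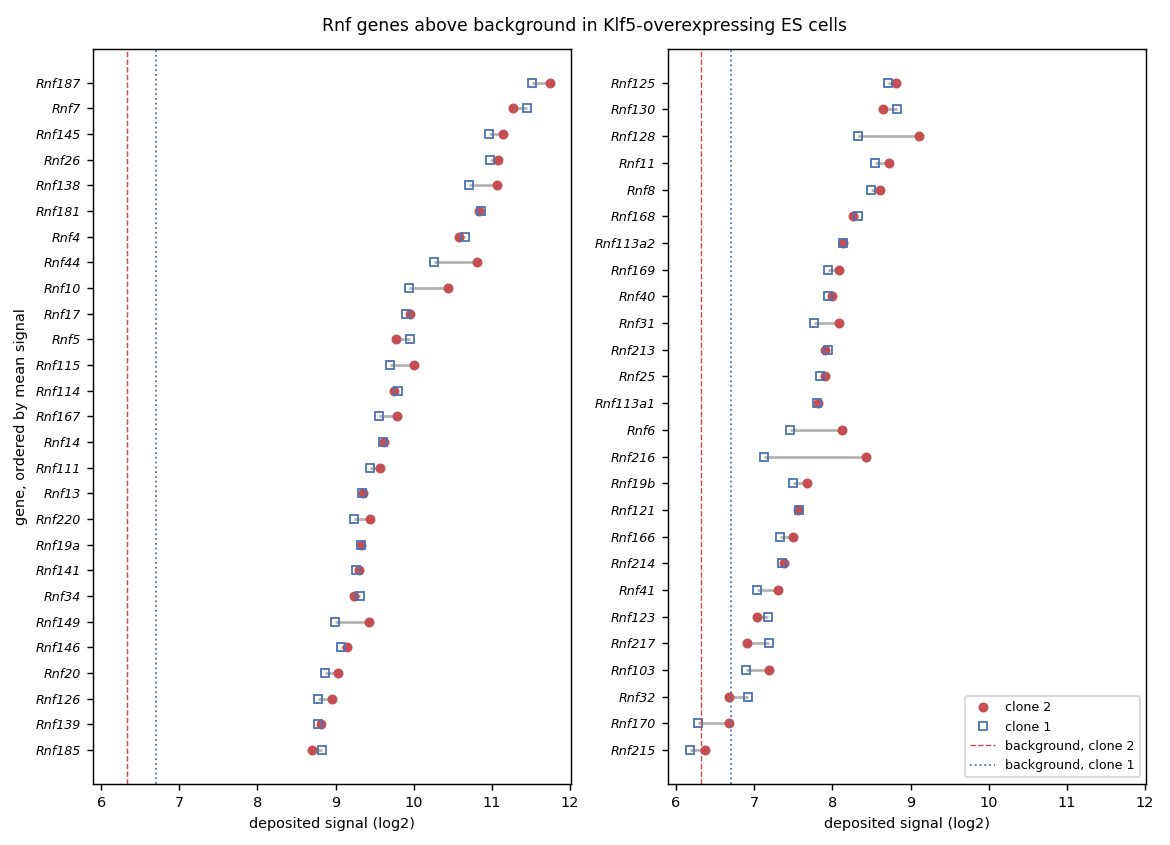
Deposited log2 signal (x axis) in clone 2 (filled circles) and clone 1 (open squares) of the 53 Rnf genes above background in at least 1 clone (y axis, ordered by mean signal), with the background level of each array as a vertical line. The symbols nearly coincide for most genes, and the widest gap is that of Rnf216, 8.43 in clone 2 and 7.13 in clone 1.

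The 23 members in neither clone had signals of 2.56 to 6.38. Besides those named above they were Rnf112, Rnf157, Rnf182, Rnf183, Rnf186, Rnf207, Rnf222 and Rnf39, listed for adult tissues, and Rnf24, Rnf122, Rnf138rt1, Rnf152, Rnf180, Rnf208, Rnf225 and Rnf227. Several are known from specialised cells, such as Rnf112 from neurons and Rnf207 from heart muscle. Their differences ran from -0.70 to 0.43, 10 higher and 11 lower in clone 2, and are not read as differences in expression.

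Between the clones, 37 of the 53 expressed members (69.8%) had a higher signal in clone 2 and 14 (26.4%) a lower one, beside 63.9% and 34.5% over all genes above background. The median difference was 0.10 for the members, beside 0.09 over all genes. The share moved with the scaling: with both arrays set to the same median 86.8% of the members were higher (77.8% over all genes), after quantile normalization 45.3% (48.5%) and after loess 49.1% (51.7%). It moved with the filter too, whose level was lower in clone 2 (6.33) than in clone 1 (6.70). Without a filter 61.8% of the 76 members and 49.2% of all genes were higher in clone 2, with medians of 0.06 and 0.0. Rnf170 and Rnf215, which passed background in clone 2 alone, are among the 37 members higher there. In 36 of 53 members (67.9%) the clones differed by less than 0.2, as they did for 56.3% of all genes above background. The SD of the difference was 0.27 over the members and 0.26 over all genes.

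By the rule of size 3 members (5.66%) were at least 1.5-fold higher in clone 2, namely Rnf216, Rnf128 and Rnf6, and 0 were lower. Over all genes above background 3.93% were at least 1.5-fold higher in clone 2 and 0.524% lower, so that the members' counts are near the background of the whole array. Rnf216 and Rnf128 passed the rule under each of the 3 other scalings, at 1.18 to 1.39 and 0.66 to 0.87. With the arrays set to the same median Rnf44 (0.64) and Rnf10 (0.59) passed as well.

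**Figure D4:**
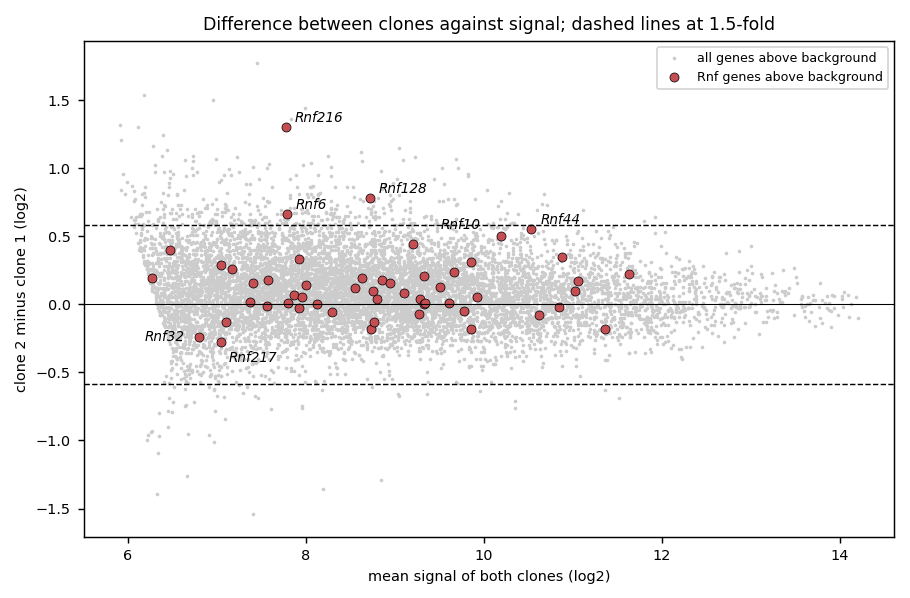
Difference between the clones (y axis, clone 2 minus clone 1, log2) against the mean signal of both (x axis, log2) for all 9551 genes above background (grey) and the 53 Rnf genes among them (red). Rnf216, Rnf128 and Rnf6 lie above the upper dashed line at 1.5-fold and no Rnf gene lies below the lower one.

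Probe sets of one gene showed how far readings of a difference varied within the same 2 arrays. Their range does not measure error between arrays or cultures, which 1 array per clone cannot give. For 21 members 2 or more probe sets were above background in both clones, 48 probe sets in all, and the differences of a gene's probe sets spanned a median range of 0.12. In 11 of the 21 members all of them had the same sign. The widest range, 0.65, was that of Rnf20, whose dimmer probe set was 6.36 in clone 2 and 6.85 in clone 1, against the direction of the brighter, which may bind several transcripts. The dimmer readings lie close to the background levels of 6.33 in clone 2 and 6.70 in clone 1. Rnf146 (-0.28 to 0.08), Rnf41 (-0.14 to 0.26), Rnf14 (-0.08 to 0.26) and Rnf7 (-0.18 to 0.12) also disagreed in sign. For comparison, the median absolute difference between the clones was 0.16 over the 53 expressed members. The pairs of Rnf128 and Rnf115 agreed within 0.09 and 0.08. A further 17 expressed members, Rnf216, Rnf44 and Rnf149 among them, rest on 1 probe set.

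**Figure D5:**
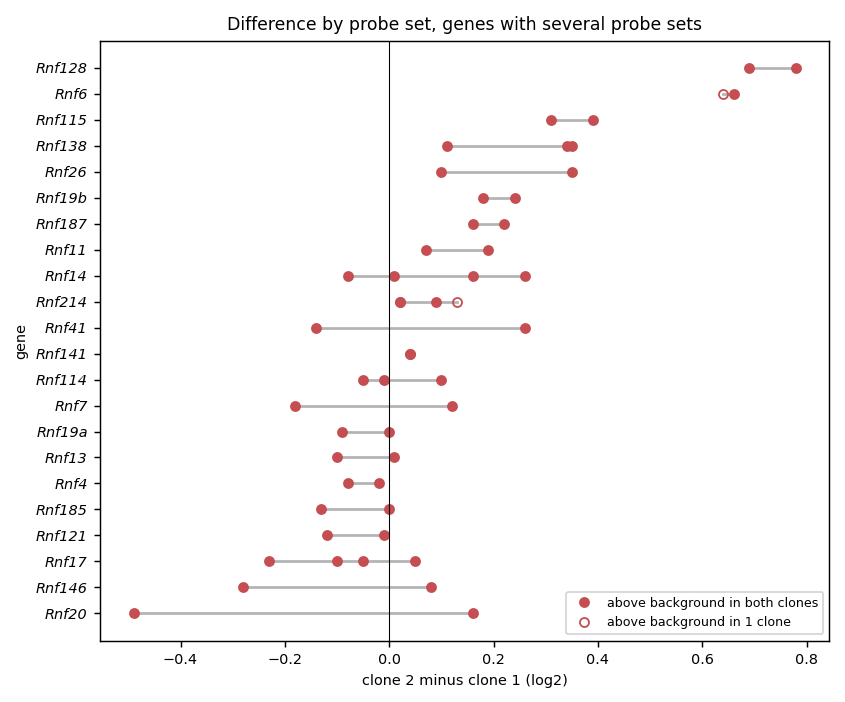
Difference between the clones (x axis, clone 2 minus clone 1, log2) for each probe set above background of the Rnf genes with several such probe sets (y axis). Filled points were above background in both clones and open points in 1. The probe sets of Rnf128 (0.69 and 0.78) and of Rnf6 (0.64 and 0.66) lie to the right of all others, and those of Rnf20 (-0.49 and 0.16) are farthest apart. The Rnf20 probe set at -0.49 has signals close to background.

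The enzymes and partners that Rnf ligases work with were read from a list of 35 genes, of which 32 were measured and all 32 were above background in both clones. They include 24 E2 enzymes. Those with the highest signals were Ube2d3 (12.76 in clone 2 and 12.56 in clone 1), Ube2s (12.38 and 12.45), Ube2c (12.17 and 12.20), Ube2k (11.85 and 11.80), Ube2a (11.79 and 11.83) and Ube2d2a (11.60 and 11.45). Ube2d enzymes serve many RING ligases, and Ube2a pairs with Rnf20 and Rnf40.

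Of the 32 genes 20 were higher and 11 lower in clone 2, with a median difference of 0.07, which was -0.01 after quantile normalization; over all genes above background 63.9% were higher and 34.5% lower, so the partners lie near that share. Ube2r2, an E2 of cullin ligases, was 9.18 in clone 2 and 8.06 in clone 1, a 2.17-fold difference, but its other probe set was lower in clone 2 (7.30, against 7.63 in clone 1). Cul5, the scaffold that Rnf7 joins, was 8.37 in clone 2 and 7.42 in clone 1, 1.93-fold higher in clone 2, and its other probe sets differed by 0.63 and -0.02. The direction for Ube2r2 thus depends on the probe set, as does the size for Cul5, and Rnf7 itself differed by less than the range over its probe sets. No partner was 1.5-fold lower. The subunits Rbck1 (9.20 and 8.90) and Sharpin (8.41 and 8.33), which form the linear ubiquitin complex with Rnf31, and Bag6 (9.72 and 9.26), the partner of Rnf126, were higher in clone 2 by less than 1.5-fold. Tnks, the tankyrase that acts with Rnf146, was lower in clone 2 (8.44, against 8.62 in clone 1).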

How the data were processed

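RNA of 2 Klf5-overexpressing ES cell clones was hybridised to 1 array each. The table that the authors deposited holds a log2 signal for every probe set on each array; the submitters' processing notes name Transcriptome Analysis Console. The background correction, the scaling and the log base were not given in the sources used here. Values of 2.21 to 14.38 fit base 2, on which the folds rest. Column medians were 5.18 in clone 2 and 5.27 in clone 1.

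Of 45037 probe sets, 34945 had 1 gene symbol in the platform annotation, 932 several and 9160 none. The Entrez identifiers of all 76 members matched the RefSeq gene table of GRCm38.p6. Any member could be named. Of the partners, the rule named those at least 1.5-fold different and the 6 with the highest signal; Rbck1, Sharpin, Bag6 and Tnks lie outside it and were picked with their values in view. Of 60 background genes listed, 53 were measured.

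No p-value was computed, because no residual degrees of freedom exist between 2 arrays. Precision is limited by the number of arrays. The counting by the rule of size was run on simulated differences as a check of the code, which does not test the genes called here. The alternatives were other background levels, averaging of each gene's probe sets, omission of probe sets ending in _x_at or _s_at, and scaling by median, quantiles or loess (span 0.3). The members and lists were chosen with earlier results of these data known. Python 3.11.15, pandas 2.3.3 and statsmodels 0.14.6 were used.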

Additional observations from a re-analysis of the deposited data

How the results depend on the processing

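Quantile normalization and loess turned the median difference of the expressed Rnf genes below 0, to -0.02 and -0.007, where the deposited values gave 0.10. Setting both arrays to the same median gave 5 genes at least 1.5-fold higher in clone 2 in place of 3, and without a background filter 2 genes, Rnf112 and Rnf152, were at least 1.5-fold lower, in place of 0. The number of Rnf genes above background in both clones ran from 37, when each gene's probe sets were averaged, to 64, with the background from sensory receptor probe sets, around 51 as reported; the sensory receptor level, and one without Mylpf, Krt10 and Cela1, were chosen after seeing the data. Over all 18193 genes the same settings gave 6688 and 11324 above background in both clones, against 8683 as reported, so the count moved across the whole array. With clone 2 alone 53 members were above background, and with clone 1 alone 51. Over all genes the count 1.5-fold higher in clone 2 was 375 as deposited, 657 with the same median, 206 after quantile normalization, 223 after loess, 186 with the mean over probe sets and 569 with no filter; the count lower was 50, 33, 117, 101, 28 and 1103 in the same order, 105 and 22 with background at the 90th and 99th percentile, 314 from sensory receptors and 76 without the 3 genes. Rnf216 was the only member to differ 2-fold under all 10 alternatives that bear on it. No paired analysis was possible because the clones form 1 group and no other group was analysed here.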
